A study of Mus musculus with 11 samples.

Results

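The GABA-B receptor, its auxiliary KCTD subunits, the GIRK potassium channels it opens and Rgs7, a regulator of their coupling, were described in FACS-sorted mPFC CRF1+ neurons. The 10 genes were taken by symbol, namely Gabbr1, Gabbr2, Kctd8, Kctd12, Kctd16, Kcnj3, Kcnj5, Kcnj6, Kcnj9 and Rgs7, and all 10 were found among the 53465 genes of the count files. Each library held the GFP-positive cells sorted from the medial prefrontal cortex (mPFC) of 1 adult male CRF1:GFP mouse, a reporter line in which GFP marks cells expressing CRF1, the type 1 receptor for corticotropin-releasing factor. The 6 naïve mice, labelled control, breathed air and received the alcohol dehydrogenase inhibitor pyrazole. The 5 withdrawn mice, labelled ethanol, breathed ethanol vapor intermittently over 5 to 6 weeks with injections of ethanol and pyrazole, and were sampled after 5 to 8 days of forced abstinence. Pyrazole and the reporter allele were thus shared by both groups. The labels conflict for withdrawn mice 3, 4 and 5, whose source name reads control although title and treatment read ethanol, and the series design counts 5 control and 6 ethanol animals, so the comparison was repeated without those mice.

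GABA-B receptors are the G protein-coupled receptors for GABA. They work as an obligatory pair in which the Gabbr1 product binds GABA and the Gabbr2 product brings the pair to the surface and engages Gi and Go proteins. Released beta-gamma dimers open GIRK channels, G protein-gated inwardly rectifying potassium channels built as tetramers, and the potassium current that follows hyperpolarizes dendrites of cortical pyramidal neurons. KCTD proteins bind the receptor pair and set the onset and desensitization of the current, and the Rgs7 product, bound to the G protein beta 5 subunit, speeds its decay.

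The 4 GIRK genes are paralogs, so their coding sequence was examined for reads that could be shared between them. The stretch around the potassium selectivity filter, a strongly conserved part of the channel, is shown 5′ to 3′ on the coding strand from GENCODE M21 transcripts on GRCm38, with the codons of the glycine-tyrosine-glycine filter in capitals.
Kcnj3 (chr2:55437615-55437659, plus strand): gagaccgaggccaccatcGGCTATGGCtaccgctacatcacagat
Kcnj5 (chr9:32322541-32322585, minus strand): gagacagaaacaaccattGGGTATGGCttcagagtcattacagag
Kcnj6 (chr16:94832759-94832803, minus strand): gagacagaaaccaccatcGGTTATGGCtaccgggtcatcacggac
Kcnj9 (chr1:172326166-172326210, minus strand): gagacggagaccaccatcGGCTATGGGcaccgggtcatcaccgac
Over these 45 bases Kcnj6 and Kcnj9 shared 39 identical positions, the most of any pair, and Kcnj5 shared 32 with Kcnj3 and 32 with Kcnj9. Across whole transcripts no run of 75 bases, the length of the sequenced reads, occurred in more than 1 of the 10 genes, so reads could be told apart between members. Parts of some members do lie opposite another annotated gene, and whether counting used strand is not given in the sources used here. Gm26778 covers 62.8% of the single exon of Kctd12 on the other strand and had 0 counts in all 11 mice. Gm26794 covers 31.1% of the Kcnj3 exons and reached at most 1.57 CPM (counts brought to a common library size with TMM). If counting ignored strand, reads from such shared bases may have been counted for neither gene, which was not tested.

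Between 7351567 and 22244869 reads per mouse were assigned to genes, so that 3 counts were worth 0.135 to 0.408 CPM. This floor covers counting error only, each library having been amplified from 160 pg of RNA. Means are given ± SD over the 6 naïve and the 5 withdrawn mice, in that order, unless stated otherwise. Slc17a7, the vesicular glutamate transporter of cortical excitatory neurons, was at 1427 ± 336 and 1354.5 ± 459 CPM, and Camk2a, a kinase of the same neurons, at 491.5 ± 149.8 and 416.7 ± 97.5 CPM. Crhr1, which encodes CRF1, was at 92.4 ± 22.0 and 88.5 ± 32.6 CPM (edgeR adjusted p = 0.984). Markers of inhibitory neurons were also detected, with Gad1 at 87.2 ± 50.5 and 153.3 ± 134.5 CPM and the interneuron peptide gene Sst between 0.069 and 686 CPM in naïve mice and between 0 and 31.98 CPM in withdrawn mice. Summed marker CPM ranged from 1794 to 3097 in naïve and from 1315 to 2780 in withdrawn mice for glutamatergic neurons, and from 87.2 to 911 and from 32.2 to 731 for GABAergic neurons. For the other cell types the naïve and withdrawn ranges were 153 to 394.5 and 192 to 518 for astrocytes, 132 to 268 and 107 to 249 for oligodendrocytes, 0 to 14.7 and 7.49 to 27.0 for oligodendrocyte precursors, 0.949 to 8.43 and 7.06 to 17.98 for microglia, 3.26 to 616 and 37.2 to 462 for endothelial cells, and 0.069 to 165 and 11.3 to 167 for pericytes. Naïve mouse 5 stood apart from the other libraries, with the fewest genes detected (15585, against 22551 to 31830 in the others), the highest share of tallied reads on genes (81.1%) and 0 counts for the oligodendrocyte precursor markers.

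Transcripts of both receptor subunits, of the channel gene Kcnj9 and of Rgs7 were abundant in the sorted cells, whereas the channel genes Kcnj6 and Kcnj5 and the KCTD genes Kctd12 and Kctd8 were low in naïve mice. Of the 10 genes, 8 had counts in all 11 mice, the exceptions being Kctd8 and Kcnj5. Levels of different genes were compared as CPM per kb of annotated exons. The length included the 62.8% of the Kctd12 exon and the 31.1% of the Kcnj3 exons shared with a gene on the other strand. If reads there went uncounted, the levels of both genes are too low, and their ranks, shares and ratios below shift with them. In naïve mice (n = 6, SD) Kcnj9 was at 46.4 ± 12.0, Gabbr1 at 39.2 ± 9.69, Rgs7 at 35.5 ± 6.44 and Gabbr2 at 32.3 ± 18.2 CPM per kb. These 4 genes could not be ranked, since the ranges over mice of neighbours in this order overlapped, and each lay above at least 89.1% of 17062 expressed genes with an exon length. Kcnj3 at 13.4 ± 2.60 CPM per kb and Kctd16 at 6.73 ± 2.15 CPM per kb formed a middle level, which overlapped neither the genes above nor those below it. Kcnj6 at 1.55 ± 0.579, Kctd12 at 1.30 ± 0.803, Kctd8 at 0.537 ± 0.708 and Kcnj5 at 0.0484 ± 0.0673 CPM per kb followed, each overlapping its neighbour. In withdrawn mice the first 6 genes kept this order and the gap between Gabbr2 (20.7 ± 4.08 CPM per kb, n = 5) and Kcnj3 (9.17 ± 1.43 CPM per kb) remained. Kctd12 was at 7.33 ± 4.76 CPM per kb there, next to Kctd16 at 7.70 ± 2.43 CPM per kb, and from Kcnj3 downwards the ranges of neighbours all overlapped.

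**Figure D1:**
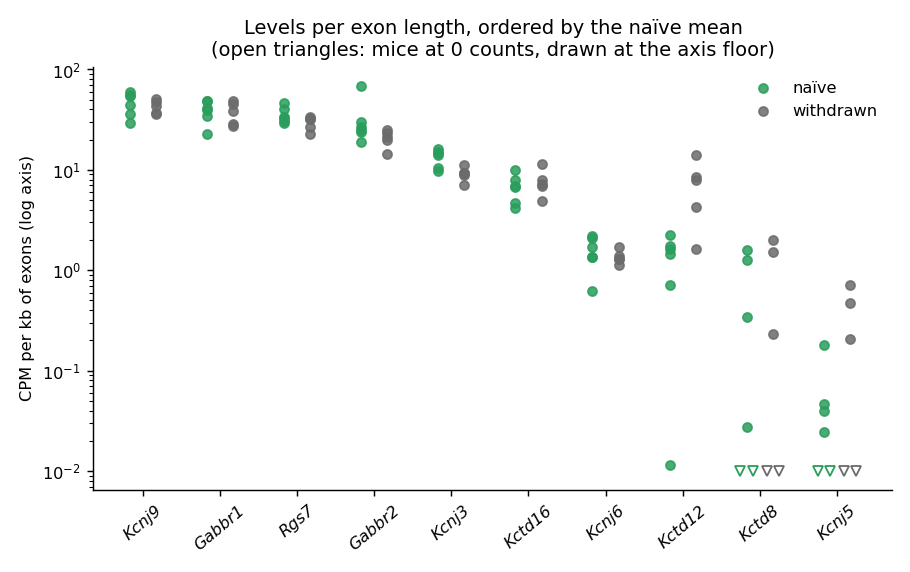
Expression of the 10 genes in each mouse as CPM per kb of exons on a log axis, green for naïve (n = 6) and grey for withdrawn mice (n = 5), in order of the naïve mean. Kcnj9, Gabbr1, Rgs7 and Gabbr2 lie between 14.3 and 68.7, Kcnj3 and Kctd16 between 4.13 and 16.1, and open triangles mark mice with 0 counts of Kctd8 or Kcnj5.

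Withdrawal was the only comparison of the series, and its question here is whether any of these genes differed between withdrawn and naïve mice. By the quasi-likelihood test of edgeR, 9 of the 10 could be tested, Kcnj5 being under the count filter. A call required a Benjamini-Hochberg adjusted p no higher than 0.05, over 17093 genes, together with a log2 fold change larger than 0.6 in size. Of the 9 genes 0 were called, beside 1 gene or 0.00585% of all genes tested. Adjusted p-values of the 9 ranged from 0.327 to 0.984. Of these, 3 had an unadjusted p under 0.05, 1 of them with a higher and 2 with a lower level in withdrawn mice, against a background of 7.22% of all genes (5.00% higher and 2.22% lower). With DESeq2, 1 of the 10, Kctd12, was called, where 1.66% of 21849 genes were. In 0 of the 9 did the 2 groups separate completely, as they did for 0.924% of all genes. Log2 fold changes were above 0 for 3 of the 9 and below 0 for 6, with a median of -0.10 (0.021 over all genes tested). Throughout, sorted cells were pooled within a mouse, so fewer cells of one type and less RNA per cell cannot be told apart.

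**Figure D2:**
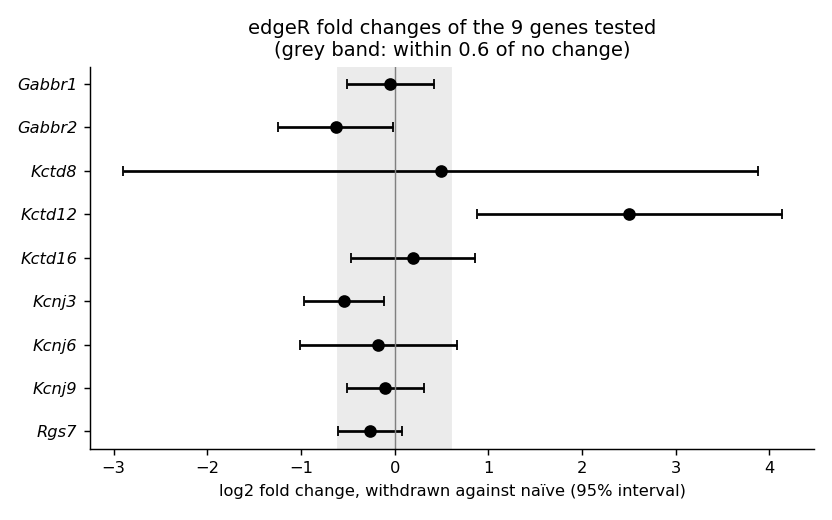
Log2 fold changes of the 9 genes tested by edgeR, withdrawn against naïve mice, with 95% intervals. The grey band spans 0.6 on either side of 0, and the intervals of Gabbr2, Kctd12 and Kcnj3 leave out 0 before adjustment over 17093 genes.

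Of the receptor subunits, Gabbr1 (chr17:37045966-37075067, plus strand) was nearly the same in both groups. Its CPM had a lowest value of 177.5, a median of 314 and a highest value of 378 in naïve mice, and was 225, 379.7, 302, 212 and 354 in withdrawn mice 1 to 5. The means were 304 ± 75.2 and 294.5 ± 74.97 CPM. The log2 fold change was -0.05 with a 95% interval from -0.51 to 0.41 (edgeR adjusted p = 0.984), which leaves room for a fold of 0.703 to 1.33.

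Gabbr2 (chr4:46662305-46991873, minus strand) was lower on average in withdrawn mice, and the size of this difference depended largely on a single naïve mouse. In naïve mice its lowest value was 128, its median 174 and its highest 459 CPM, the last in naïve mouse 5. In withdrawn mice 1 to 5 it was 95.7, 155, 167, 141 and 133 CPM. All 5 withdrawn mice lay below the naïve median and 1 lay below the lowest naïve mouse, so the groups overlapped. The log2 fold change was -0.63 ± 0.29 (SE, edgeR p = 0.0456, adjusted p = 0.682, exact permutation p = 0.0866). The exact permutation tests were two-sided, over 462 splits of the mice, and their p-values were not adjusted over the 10 genes. Without naïve mouse 5 the log2 fold change was -0.27 ± 0.17 (edgeR adjusted p = 0.799), without withdrawn mice 3, 4 and 5 it was -0.83 ± 0.44 (edgeR adjusted p = 0.789), and with the mean log2 CPM of the fibroblast markers as a covariate it was -0.056 ± 0.29 (edgeR adjusted p = 0.991).

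The ratio of the 2 subunits was lowest in the same mouse. In CPM per kb, Gabbr1 to Gabbr2 lay between 1.62 and 1.81 in 5 naïve mice and was 0.333 in naïve mouse 5. It was 2.02, 2.11, 1.55, 1.30 and 2.30 in withdrawn mice 1 to 5. The withdrawn median of 2.02 and the naïve median of 1.65 lie within the spread of the withdrawn mice.

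Among the KCTD genes, Kctd12 (chr14:102976581-102982637, minus strand, a single exon), whose product speeds desensitization of the GABA-B potassium current by binding beta-gamma dimers, showed the largest difference of all 9 genes tested. It was at 8.75, 9.94, 10.6, 4.34, 0.0694 and 13.6 CPM in naïve mice 1 to 6, from 1 to 220 counts. In withdrawn mice 1 to 5 it was at 85.9, 9.86, 25.8, 48.5 and 51.8 CPM, from 88 to 1227 counts. In all, 4 of the 5 withdrawn mice lay above the highest naïve mouse, and withdrawn mouse 2 lay within the naïve range. The means of 7.87 ± 4.86 and 44.4 ± 28.9 CPM stood in a ratio of 5.64. On the log2 scale the fold change was 2.503 ± 0.757 (SE, edgeR p = 0.00531, adjusted p = 0.327, exact permutation p = 0.0173), with a 95% interval from 1.84-fold to 17.5-fold. DESeq2 gave 2.54 with an adjusted p of 0.0490. Without withdrawn mouse 1 the DESeq2 value was 2.15 with an adjusted p of 0.269, and without naïve mouse 5 it was 2.25 with an adjusted p of 0.00105. The lowest and highest log2 fold changes over the edgeR fits that left out 1 mouse were 2.09 and 2.75. Without withdrawn mice 3, 4 and 5, whose labels conflict, it was 2.60 ± 1.03 (edgeR adjusted p = 0.789).

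Markers of fibroblasts were high in withdrawn mice 1, 3, 4 and 5, the mice with more Kctd12 than any naïve mouse. The 8 markers summed to 5.48, 19.4, 66.8, 52.5, 0.0694 and 22.2 CPM in naïve mice 1 to 6 and to 1252, 17.8, 628, 879.7 and 231 CPM in withdrawn mice 1 to 5. Withdrawn mouse 2, which had the least Kctd12 of its group, also had the smallest sum of its group, and naïve mouse 5 had the least of both among all mice. Among the other withdrawn mice the match was loose. Withdrawn mouse 3 had 628 marker CPM and 25.8 Kctd12 CPM, and withdrawn mouse 5 had 231 and 51.8. All 6 fibroblast markers tested were higher in withdrawn mice, 4 of them with an unadjusted edgeR p under 0.05. DESeq2 called 3, the collagen gene Col1a1 and the matrix proteoglycan genes Dcn and Ogn. Lum and Igf2, markers not tested by edgeR, were lower in withdrawn mice. Their means were 1.36 and 0.462 CPM in naïve mice and 0.893 and 0.0895 CPM in withdrawn mice. Of other cell types, the astrocyte marker Gja1 and the microglial marker Tmem119 also lay above the highest naïve mouse in 4 withdrawn mice. The other 4 astrocyte and 2 microglial markers tested by edgeR had log2 fold changes below 0. With the mean log2 CPM of the fibroblast markers as a covariate the Kctd12 log2 fold change was 0.98 ± 0.77 (SE, edgeR adjusted p = 0.902). The same covariate in DESeq2 gave 0.98 with an adjusted p of 0.689. Withdrawn mice 1, 3, 4 and 5 all exceeded the highest naïve marker sum of 66.8 CPM. Fits with this covariate, for any gene, can thus hardly tell marker level and group apart. The source of the Kctd12 reads was not tested.

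**Figure D3:**
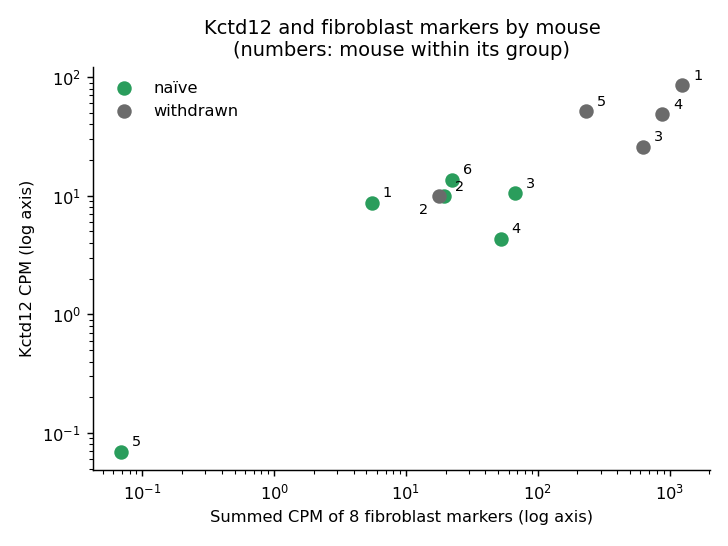
Kctd12 CPM of each mouse against the summed CPM of 8 fibroblast markers, both on log axes, with the mouse number beside each point. Withdrawn mice 1, 3, 4 and 5 (grey) lie at 231 to 1252 marker CPM and 25.8 to 85.9 Kctd12 CPM, while withdrawn mouse 2 lies among the naïve mice (green) and naïve mouse 5 lies far below all others.

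The other auxiliary subunits showed no comparable difference. Kctd16, on chromosome 18, had a lowest value of 14.4, a median of 23.8 and a highest value of 34.7 CPM in naïve mice, and was at 25.3, 40.1, 27.7, 17.01 and 23.8 CPM in withdrawn mice 1 to 5. The 2 groups overlapped over most of their range, and the log2 fold change was 0.20 with a 95% interval from -0.46 to 0.86 (edgeR adjusted p = 0.946). Kctd8 (chr5:69109285-69341679, minus strand) was listed at 0 counts in naïve mice 1 and 5 and in withdrawn mice 2 and 3 and reached 5.37 CPM in naïve and 6.76 CPM in withdrawn mice. Its interval, from 0.134-fold to 14.7-fold, spans both directions. As shares of the 3 KCTD genes per kb, Kctd16 took 80.3 ± 15.1% in naïve and 52.2 ± 23.9% in withdrawn mice, and Kctd12 took 13.9 ± 8.74% and 43.5 ± 20.0%. In withdrawn mouse 2 the Kctd12 share was 12.4%, inside the naïve range of 0.277% to 26.4%.

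**Figure D4:**
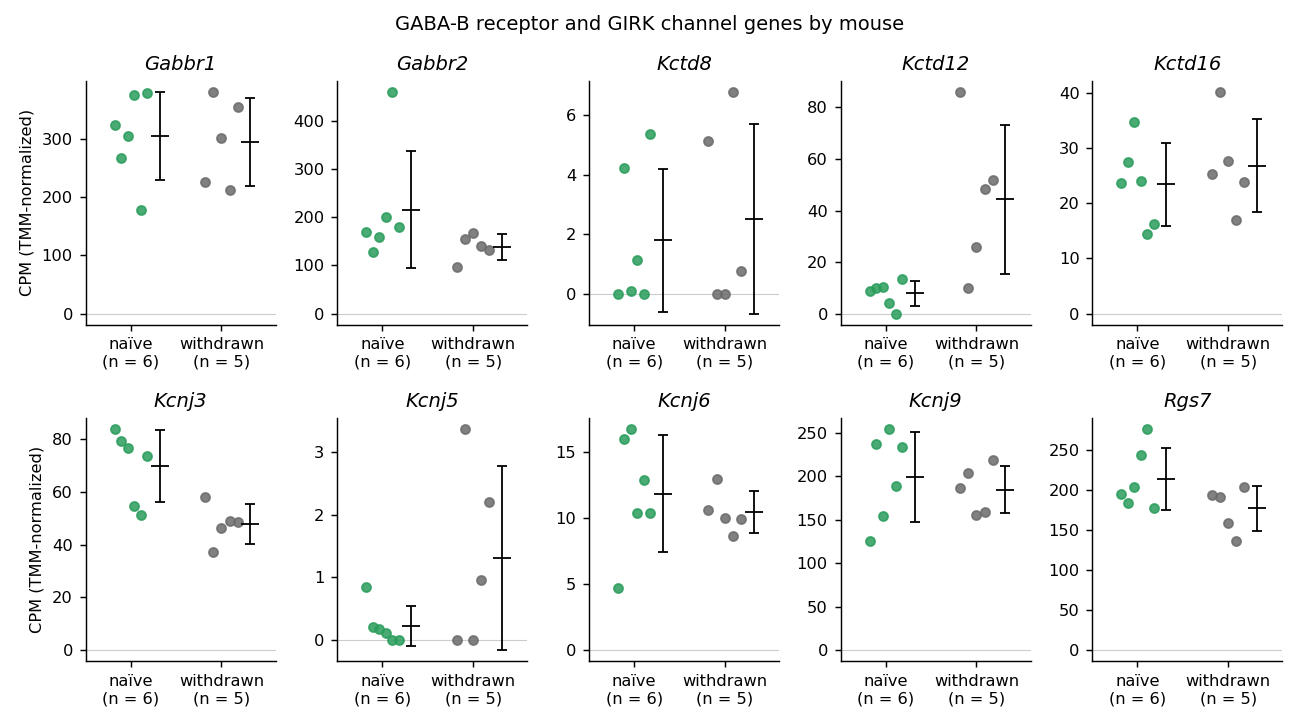
TMM-normalized CPM of each of the 10 genes in every mouse, with 6 naïve mice in green and 5 withdrawn mice in grey, and beside each group its mean and SD as a black bar. The 2 groups overlap for every gene. Withdrawn mice 1, 3, 4 and 5 lie above all naïve mice for Kctd12, and withdrawn mice 2, 3, 4 and 5 lie below all naïve mice for Kcnj3.

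Kcnj3 (chr2:55435970-55598145, plus strand), which encodes GIRK1, the subunit that gives heteromeric channels their strong response to beta-gamma dimers, had the second smallest unadjusted p among the members. It was at 83.8, 79.0, 76.7, 54.6, 51.1 and 73.6 CPM in naïve mice 1 to 6. In withdrawn mice 1 to 5 it was at 58.0, 37.1, 46.4, 48.9 and 48.7 CPM. Below the lowest naïve mouse lay 4 withdrawn mice, and withdrawn mouse 1 lay above naïve mice 4 and 5. The means of 69.8 ± 13.6 and 47.8 ± 7.47 CPM stood in a ratio of 0.685. The log2 fold change was -0.54 ± 0.20 (SE, edgeR p = 0.0164, adjusted p = 0.491, exact permutation p = 0.0217), with a 95% interval from 0.513-fold to 0.923-fold. DESeq2 gave an adjusted p of 0.229. Leaving out 1 mouse at a time gave log2 fold changes from -0.64 to -0.47, and the fibroblast covariate gave -0.78 ± 0.23 (edgeR adjusted p = 0.727). Without withdrawn mice 3, 4 and 5 it was -0.58 ± 0.32 (edgeR adjusted p = 0.79).

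The neuronal partners of Kcnj3 were closer between groups. Kcnj9 (chr1:172320501-172329318, minus strand) encodes GIRK3, which joins other subunits in heteromers and influences their trafficking. Its lowest, median and highest values were 125, 211.5 and 254.5 CPM in naïve mice, and it was at 187, 203, 155, 159 and 218.5 CPM in withdrawn mice 1 to 5, all inside the naïve range. The log2 fold change was -0.10 with a 95% interval from -0.51 to 0.31 (edgeR adjusted p = 0.959). Kcnj6 (chr16:94748636-94997701, minus strand) encodes GIRK2, which can form channels alone and carries many of the neuronal heteromers. It lay between 4.74 and 16.8 CPM in naïve mice with a median of 11.6, and at 10.6, 13.0, 9.99, 8.69 and 9.91 CPM in withdrawn mice, also inside the naïve range. The log2 fold change was -0.18 with a 95% interval from -1.02 to 0.66 (edgeR adjusted p = 0.966), which as a fold runs from 0.495 to 1.58.

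Kcnj5 (chr9:32314707-32344350, minus strand) encodes GIRK4, best known from the heart. It was listed at 0 in 2 naïve and 2 withdrawn mice and had at most 8 counts in naïve and 31 in withdrawn mice. Withdrawn mice 2, 4 and 5, at 3.36, 0.965 and 2.20 CPM, lay above the highest naïve mouse at 0.843 CPM. Withdrawn mouse 4 and that naïve mouse both had 8 counts, so they differ only by the scaling of their libraries. The exact permutation test gave p = 0.234, DESeq2 gave an adjusted p of 0.616, and edgeR did not test the gene.

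Within the GIRK family, the CPM per kb of Kcnj9 exceeded that of the other 3 genes together in every mouse. It made up 74.7 ± 7.51% of the summed CPM per kb of the GIRK genes in naïve and 79.7 ± 2.73% in withdrawn mice. These are shares of counts per exon length, not numbers of transcripts. The Kcnj3 share was 22.7 ± 7.40% and 17.2 ± 3.29%, with ranges from 14.7% to 34.9% and from 12.5% to 19.8%. Kcnj6 took 2.55 ± 1.01% and 2.55 ± 0.357%, and Kcnj5 at most 1.26% in any mouse. The ratio of Kcnj9 to Kcnj3 per kb was lowest in naïve mouse 1 at 1.82 and highest in withdrawn mouse 2 at 6.67, and its naïve and withdrawn medians were 3.76 and 4.08, with overlapping ranges.

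**Figure D5:**
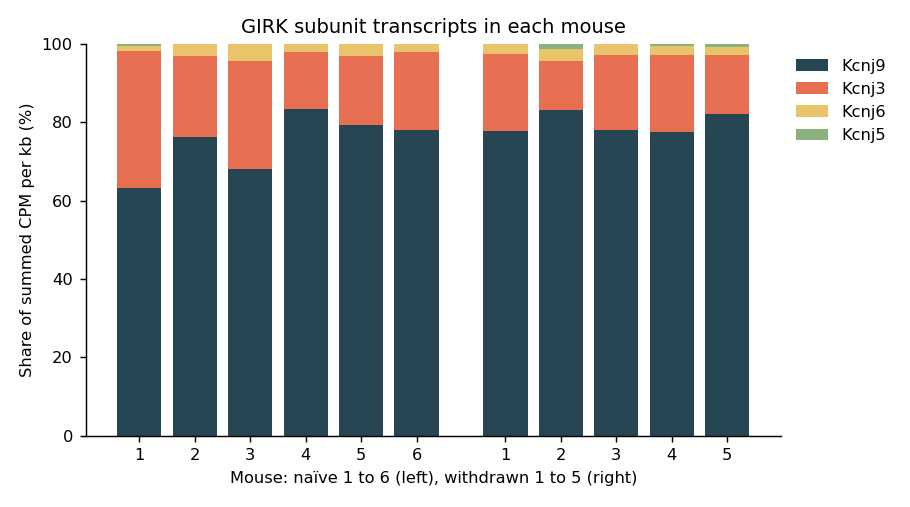
Share of each GIRK subunit gene in the summed CPM per kb of the 4 genes, one bar per mouse, naïve mice 1 to 6 on the left and withdrawn mice 1 to 5 on the right. Kcnj9 makes up 63.4% to 83.4% of naïve and 77.6% to 83.3% of withdrawn bars.

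Rgs7 (chr1:175059087-175492500, minus strand), whose product acts as a GTPase-activating protein on Gi and Go proteins, had a lowest value of 177, a median of 199.6 and a highest value of 277 CPM in naïve mice. It was at 194, 192, 159, 137 and 203.5 CPM in withdrawn mice 1 to 5. Withdrawn mice 3 and 4 lay below the lowest naïve mouse and the other 3 inside the naïve range. The log2 fold change was -0.26 ± 0.16 (SE, edgeR adjusted p = 0.805) with a 95% interval from 0.658-fold to 1.06-fold, and the exact permutation test gave p = 0.113.

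In all, 7 pairs of genes whose products meet in one complex were compared over the 11 mice on log2 CPM. Gabbr2 and Kctd12 ran in opposite directions, with Pearson's r = -0.93 (permutation p = 0.00056, adjusted p = 0.00392) and Spearman's rho = -0.72 (permutation p = 0.0164, adjusted p = 0.115). The value was -0.92 after centring within groups and -0.95 in the 6 naïve mice, both with naïve mouse 5 included. It was -0.75 without naïve mouse 5, and -0.59 without naïve mouse 5 and withdrawn mouse 1, the 2 mice farthest from the median of Gabbr2, so that its size rests in part on these mice. Gabbr1 and Gabbr2 gave r = -0.27 (permutation p = 0.429, adjusted p = 0.751) and rho = 0.18, and r = 0.79 without naïve mouse 5 and withdrawn mouse 4. The other 5 pairs had adjusted permutation p-values of at least 0.281 for r. Among them, Gabbr2 and Kcnj3 gave r = -0.11 over all mice, -0.79 after centring within groups and -0.81 in the naïve mice. These values include naïve mouse 5, and without it r was 0.058. All values share the library totals used to scale them.

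Of 84 further genes of the pathway, 75 passed the count filter, 32 of them with a log2 fold change above 0 and 43 below, with a median of -0.04 (0.021 over all genes). None was called by edgeR, which gave 5 of them an unadjusted p under 0.05 where 7.22% of all genes had one, and none was called by DESeq2. Gnai3, an inhibitory alpha subunit, was at 40.9 ± 10.9 CPM in naïve and 58.7 ± 8.92 CPM in withdrawn mice (log2 fold change 0.53 ± 0.22, edgeR adjusted p = 0.614), and the most abundant alpha subunit gene, Gnai1, was at 324 ± 46.1 and 324.5 ± 48.8 CPM. Among 14 beta and gamma subunit genes tested, 5 lay above and 9 below 0. Gnb1, the most abundant of them, had 631 ± 343 CPM in naïve and 419.6 ± 59.5 CPM in withdrawn mice (log2 fold change -0.58 ± 0.27, edgeR adjusted p = 0.692). Gng3, a neuronal gamma subunit, had a log2 fold change of -0.51 ± 0.21 (edgeR adjusted p = 0.609) and Gng5, a broadly expressed one, 1.96 ± 0.76 (edgeR adjusted p = 0.547).

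Htr1a, the serotonin 5-HT1A receptor and another opener of GIRK channels, was at 12.9 ± 8.04 CPM in naïve and 28.4 ± 13.4 CPM in withdrawn mice (log2 fold change 1.14 ± 0.52, edgeR adjusted p = 0.676). It was the 1 gene of 19 such receptors with an unadjusted p under 0.05, and the most abundant of them, the cannabinoid receptor gene Cnr1, had a log2 fold change of -0.02 ± 0.20. Partners of Rgs7 and other RGS genes (12 tested), GABA-B receptor binding and trafficking partners (10 tested), other inward rectifier subunits (7 tested) and adenylyl cyclases (8 tested) had 0 genes with an unadjusted p under 0.05. Their most abundant genes were Rgs4 with a log2 fold change of -0.16 ± 0.23, Nsf, an ATPase of membrane fusion, with -0.11 ± 0.17, Abcc8, the sulfonylurea receptor, with 0.09 ± 0.27, and Adcy1, a calcium-stimulated cyclase, with -0.39 ± 0.28.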

How the data were processed

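RNA of FACS-sorted mPFC CRF1+ neurons from 11 male CRF1:GFP mice was sequenced, 1 library per mouse. The authors trimmed single reads, mapped them to GRCm38 (processing notes of the submitters) and tallied them per Ensembl gene with HTSeq. The deposited values are these raw counts, not normalized and not pooled, and the 5 tallies of unassigned reads (18.9% to 58.0% of reads per mouse) were left out. Symbols and exon lengths came from GENCODE M21, which names 53360 of the 53465 genes. Mice were grouped by title and treatment.

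Counts were tested with edgeR 4.0.16 in R 4.3.3 (TMM, filterByExpr with a minimum count of 10 and total of 15, quasi-likelihood test, Benjamini-Hochberg adjustment over all genes tested). The tests were run on simulated data first. Exact permutation tests were two-sided on log2 CPM with a prior count of 2, over 462 splits (smallest possible p = 0.00433). Intervals used edgeR's total degrees of freedom. Correlation p-values came from 100000 permutations. Alternatives were DESeq2 1.42.0, limma 3.58.1 voom with quality weights, other filters, scalings, covariates and subsets of mice. Fits with the fibroblast covariate and DESeq2 fits with a mouse left out were chosen after seeing the data.

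The 10 genes, the pathway lists, markers and tests were chosen with earlier results of these data known. All 10 were named, and from each list the genes with an unadjusted p under 0.05 and the most abundant gene. No 2 libraries were duplicates, since their counts differed by at least 25.6 times the sampling variance. Same-numbered mice of the 2 groups are different animals, and correlations of their deviations from the group means ran from -0.20 to 0.18, so no block was used.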

Additional observations from a re-analysis of the deposited data

Results flagged for a closer look

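Of 20 sets of values, each 1 gene in 1 group, 2 had a highest or lowest mouse set widely apart, where chance gives about 1. Both were values of naïve mouse 5. Gabbr2 stood at a log2 CPM of 8.84 in this mouse, against 7.00 to 7.64 in the other 5 naïve mice. Kctd12 stood at a log2 CPM of -2.23, against 2.17 to 3.78, which corresponds to 1 count. This library also had the fewest genes detected and the highest share of reads on genes, and the part of either in these values was not tested. Without it the Gabbr2 log2 fold change was -0.27 (edgeR adjusted p = 0.799) and that of Kctd12 was 2.24 (edgeR adjusted p = 0.138).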

How the results depend on the processing

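Of the 10 genes, 0 were called in edgeR or limma under the settings tried, and DESeq2 called 1, Kctd12, with all mice (log2 fold change 2.54) and without naïve mouse 5 (2.25). The count of all genes called was 1 and rested on the setting, with 362 in DESeq2, 137 without a filter, 30 with at least 10 counts in every mouse, 0 without the 3 mice of conflicting labels, 0 with the replicate block, 26 with genes detected, 0 with GABAergic markers and 0 with fibroblast markers as covariate. In DESeq2 it was 196 with the fibroblast covariate, 150 without withdrawn mouse 1 and 420 without naïve mouse 5, and leaving out 1 mouse in edgeR gave 0 to 193, the highest without withdrawn mouse 2. Of the pathway genes, 5 had an unadjusted p under 0.05, against 2 without the 3 mice, 8 with GABAergic markers, 3 with fibroblast markers, 3 and 8 in DESeq2 without withdrawn mouse 1 and naïve mouse 5, and 1 to 8 with 1 mouse left out. Fold changes near 0 turned direction. Kctd8 went to -1.21 with voom, -1.30 with genes detected, -4.52 with fibroblast markers and -4.51 in DESeq2 with them. Gabbr1 went to 0.031 with the replicate block, 0.0015 with GABAergic markers, 0.0063 in DESeq2 with fibroblast markers, 0.066 in DESeq2 without withdrawn mouse 1 and 0.032 in mean log2 CPM with library totals only. The replicate block changed no call of a member. Without the 3 mice of conflicting labels, differences in mean log2 CPM were 2.61 for Kctd12 (exact permutation p = 0.286) and -0.56 for Kcnj3 (exact permutation p = 0.214), with fewer mice, and 0.094 for Kcnj6 and 0.014 for Kcnj9. With 1 mouse left out, log2 fold changes ran from -0.16 to 0.055 for Gabbr1 and from -0.30 to 1.20 for Kctd8, and differences in mean log2 CPM from -0.19 to 0.066 for Gabbr1, -0.65 to -0.28 for Gabbr2 (exact permutation p = 0.0159 without naïve mouse 2), -0.38 to 1.02 for Kctd8, -0.33 to 0.032 for Kcnj6 and -0.20 to 0.0032 for Kcnj9. Correlations that turned without the 2 farthest mice were Gabbr1 with Gabbr2 (0.79), Kcnj3 with Kcnj6 (0.73), Kcnj3 with Kcnj9 (0.28) and Gabbr2 with Kcnj3 (0.071). The cause of these moves was not tested. Kctd12 has no value with at least 10 counts in every mouse, since naïve mouse 5 has 1 count. Low counts limit Kctd8 and Kcnj5 most.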
